A study of Mus musculus with 3 samples.

Results

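The acute-phase and chemokine response was followed through 9 of the 55450 genes in the count tables, which were described across the cell classes of mouse testis: Saa3, Lcn2, Lrg1 and Serpina3n, which encode secreted acute-phase proteins, Cxcl1, Cxcl10 and Ccl8, which encode chemokines, Icam1, an adhesion molecule, and Nfkbia, an inhibitor of NF-kB. The genes were chosen by symbol, because differences between these libraries had been seen for several of them, so the contrasts below describe the chosen genes and are not independent evidence. The dEXO library came from testis of busulfan-treated mice injected with blood exosomes from mice with an imbalance of the gut microbiota. The EXO library came from busulfan-treated mice injected with blood exosomes from wild-type mice, and the PBS library from busulfan-treated mice injected with saline. Busulfan is an alkylating drug that depletes spermatogenic cells and gives a model of azoospermia, and all 3 groups carried it, so no library of untreated testis was compared here. The strain, age, doses and the number of animals per library are not given in the sources used here. Each group was 1 library of 10x Genomics 3′ single-cell RNA, so there is no replicate spread and no p-value, and the intervals given cover counting error alone.

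During an acute-phase response, cytokines such as interleukin 1, interleukin 6 and tumour necrosis factor act through NF-kB, STAT and C/EBP transcription factors to raise secreted proteins that bind lipids, iron carriers or proteases. Chemokines of the CXC and CC families attract leukocytes, and Icam1 lets them adhere. Nfkbia is itself a target of NF-kB and holds it in the cytoplasm, which makes it part of a feedback loop. In testis, Leydig cells make testosterone in the interstitium next to macrophages and stromal cells.

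The files held 9760 dEXO, 10228 EXO and 5514 PBS barcodes with 96655663, 91787154 and 97253862 unique molecular identifiers (UMIs), and 8454, 9084 and 5049 cells were used after filters and doublet removal, with medians of 2939, 3172 and 7877 UMIs. Pairs of libraries shared 19 barcodes each, and none was in all 3 libraries. Clusters of cells were named from marker genes, with the 9 genes and the inflammation lists left out of the clustering. The largest classes were stromal-like cells, with 2683 dEXO, 4125 EXO and 1903 PBS cells, and Leydig-like cells, with 1760 dEXO, 1883 EXO and 1647 PBS cells. Leydig-like cells came from different clusters in different libraries. Cluster c4 held 1594 dEXO, 138 EXO and 18 PBS cells, cluster c1 held 84 dEXO, 1047 EXO and 1137 PBS cells, and cluster c5 held 82 dEXO, 698 EXO and 492 PBS cells, so values within clusters are given where they differ from those of the class. Since c4 is mostly 1 library, it may be that library and not a kind of cell. With levels given as summed UMIs of a gene scaled to 1000000 UMIs of the class (CPM), markers of other cell types moved between the libraries too: the summed markers of late spermatocytes stood at 836 CPM in dEXO, 315 CPM in EXO and 99.7 CPM in PBS stromal-like cells, and their part in the results was not tested.

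The classes with the highest levels differed from gene to gene. Leydig-like cells held most UMIs of 3 of the 9 genes in each library, Lcn2 (90.2% of the library's Lcn2 UMIs in dEXO, 93.7% in EXO, 93.4% in PBS), Lrg1 (86.2%, 87.5% and 89.7% in the same order) and Cxcl1 (79.7%, 72.3% and 73.3%). They held 30.3% of all dEXO, 42.6% of all EXO and 62.3% of all PBS UMIs. Icam1 and Nfkbia were highest in T or NK cells in each library among the classes plotted. Cxcl10 was highest there in dEXO and EXO, and in macrophage cluster c16 in PBS. Ccl8 was concentrated in macrophage cluster c19, which also carried Leydig markers at 54300 CPM in dEXO, 58872 CPM in EXO and 47585 CPM in PBS.

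**Figure D1:**
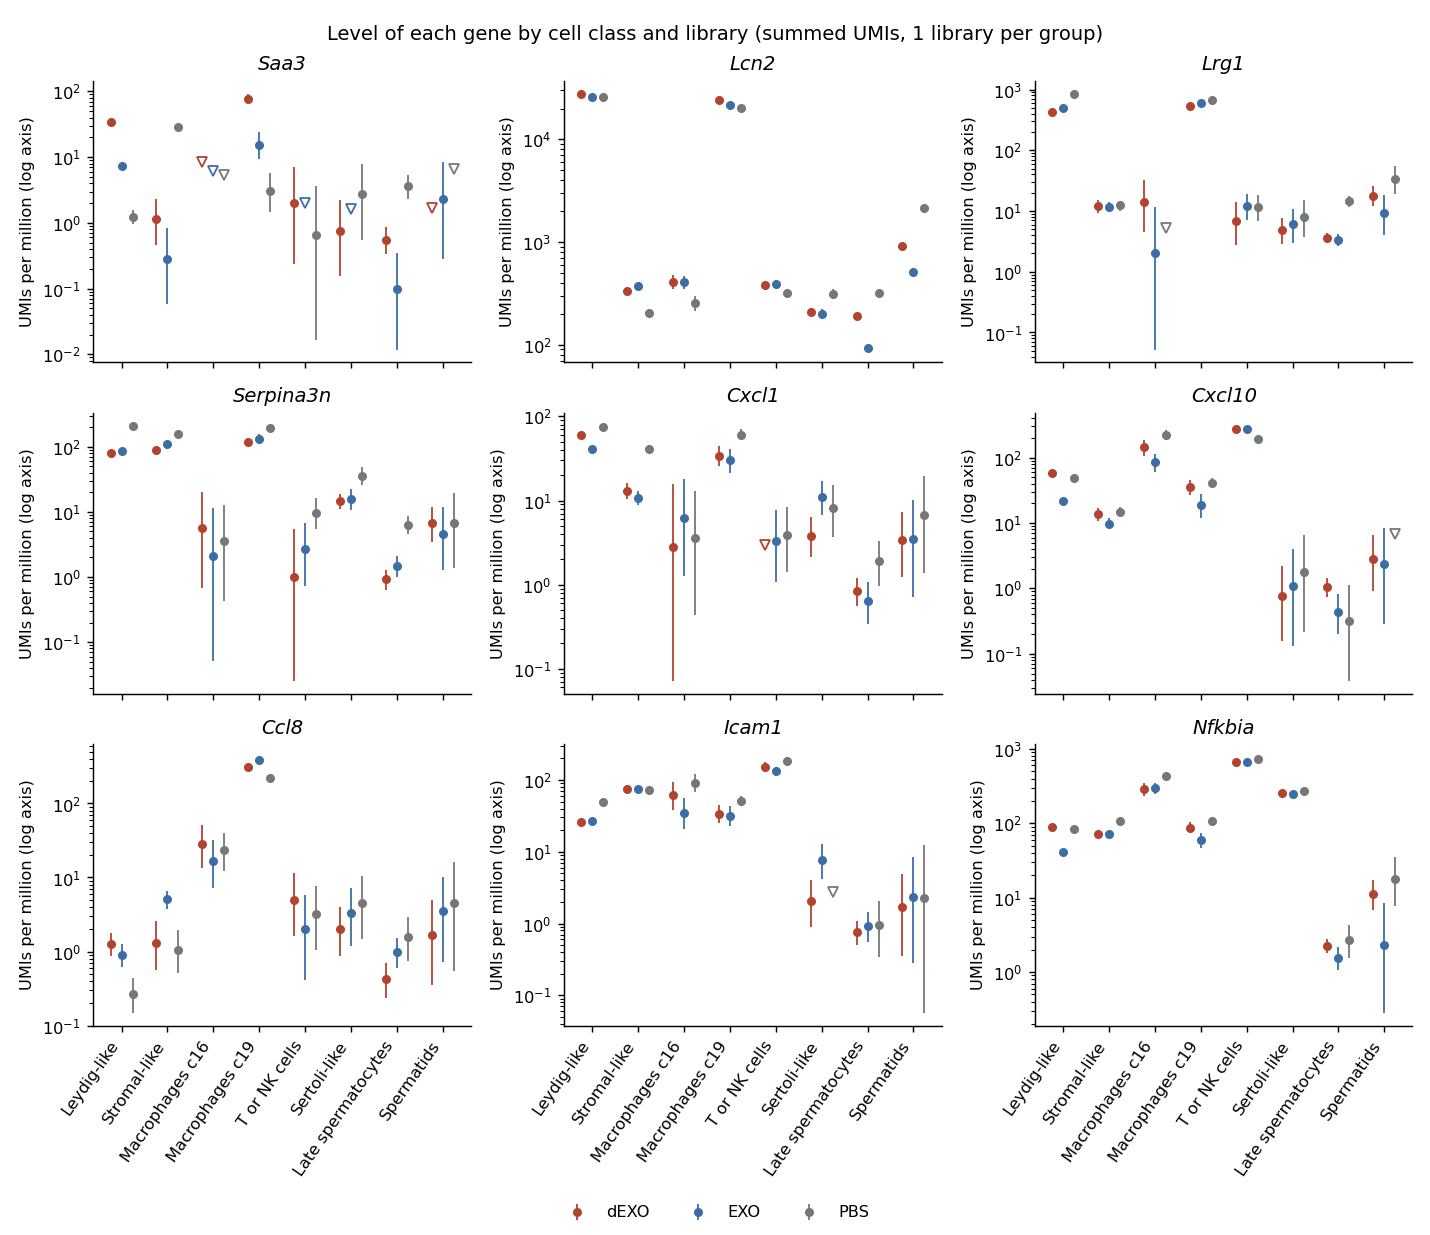
Level of each of the 9 genes (CPM, log axis) in 6 named classes and in macrophage clusters c16 and c19, shown apart, for the dEXO, EXO and PBS libraries. Bars are exact 95% Poisson intervals, and open triangles mark the limit of 3 counts where no UMI was seen. Lcn2 and Lrg1 stand highest in Leydig-like cells and c19, Ccl8 in c19, and Nfkbia in T or NK cells. Cluster c19 also carries Leydig markers, so its levels are those of mixed RNA.

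Saa3, on chromosome 7 (46711998 to 46715700, minus strand, GRCm38), encodes serum amyloid A3, an acute-phase apolipoprotein made in mouse mainly outside the liver. In Leydig-like cells it had 919 UMIs in dEXO, 266 in EXO and 71 in PBS, or 34.1 CPM (32.0 to 36.4), 7.43 CPM (6.56 to 8.38) and 1.25 CPM (0.977 to 1.58). The 3 intervals did not overlap, and the level was highest in dEXO. These intervals take each UMI as independent, while many Saa3 UMIs shared a cell, as described below. Saa3 has close paralogs, Saa1 and Saa2, so the assignment of some reads between them is uncertain. The log2 ratio was 4.77 (4.42 to 5.14) for dEXO against PBS, 2.57 (2.19 to 2.97) for EXO against PBS and 2.20 (2.0 to 2.40) for dEXO against EXO. The dEXO level was thus 27.3-fold that of PBS. Over the alternative settings the log2 ratio of dEXO to PBS ran from 3.72, with no doublets removed, to 6.06, with thinned cells, of which 1 in PBS kept a UMI.

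The Saa3 UMIs sat in a minority of the Leydig-like cells. At least 1 UMI was found in 177 of 1760 dEXO cells, 53 of 1883 EXO cells and 31 of 1647 PBS cells, and 5 or more in 62 dEXO, 13 EXO and 4 PBS cells. The median depth of these cells was 14441 UMIs in dEXO, 18481 in EXO and 32938 in PBS, so the order of the shares ran against the order of depth. With each cell thinned to 1000 UMIs, 52 of 1755 dEXO cells (2.96%), 7 of 1883 EXO cells (0.372%) and 1 of 1644 PBS cells (0.0608%) kept a UMI. T or NK cells, which should lack the transcript, had UMIs in 0.482% of dEXO, 0% of EXO and 0.305% of PBS cells at median depths of 2051, 2412 and 4032 UMIs. Thinned T or NK cells held none in 400 dEXO, 498 EXO and 323 PBS cells, which leaves exact upper bounds of 0.918%, 0.738% and 1.14%. The dEXO share of Leydig-like cells, 2.22% to 3.87% by its interval, lay above its bound. The EXO and PBS shares lie below bounds set by so few T or NK cells, so thinning cannot place them against the background. Without thinning, no T or NK cell held more than 1 Saa3 UMI, against 5 or more in the 62 dEXO, 13 EXO and 4 PBS Leydig-like cells above, which were also deeper. Single germ cells reached such counts too. The highest late spermatocyte held 22 UMIs in PBS and 8 in dEXO, and the highest dEXO spermatogonium 6. The highest PBS Leydig-like cell held 10. Depth was not matched in this comparison. Cluster c14, which held these late spermatocytes, had medians of 41337 UMIs in PBS and 37057 in dEXO, and dEXO spermatogonia had a median of 16900. By raw counts alone, 5 or more UMIs did not set Leydig-like cells apart from all other classes.

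Within clusters the picture was uneven. In c4 Saa3 had 888 UMIs in dEXO against 1 in EXO, a log2 ratio of 6.21 (3.73 to 11.52). In c5 the ratio of dEXO to EXO was 0.10 (-0.77 to 0.86), from 15 dEXO and 166 EXO UMIs, of which 57 were in 1 EXO cell. Against PBS, EXO was higher in both c1 (1.77, 1.28 to 2.27) and c5 (3.71, 2.95 to 4.58), and dEXO was higher in c1 (3.72, 2.82 to 4.55), where it had 16 UMIs. In c1 dEXO also exceeded EXO (1.96, 1.10 to 2.73). The interval of the dEXO to EXO ratio thus lay above 0 in c4 and c1 and included 0 in c5. The ratios to PBS also depended on the doublets: with none removed they were 3.72 for dEXO and 1.37 for EXO. The EXO cell with 57 UMIs held 21.4% of the 266 EXO UMIs of the class.

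In stromal-like cells PBS was the highest library by summed UMIs, with 1.14 CPM (0.457 to 2.34) in dEXO, 0.286 CPM (0.0590 to 0.836) in EXO and 28.8 CPM (25.5 to 32.5) in PBS. Those values came from 7 UMIs in 5 dEXO cells, 3 UMIs in 3 EXO cells and 271 UMIs in 5 PBS cells. A single PBS cell held 263 of the 271 UMIs. Without the highest cell of each library the levels were 0.650 CPM in dEXO, 0.191 CPM in EXO and 0.852 CPM in PBS, from 4, 2 and 8 UMIs, which is too few for a ratio. The log2 ratios of -4.66 (dEXO against PBS) and -6.66 (EXO against PBS) therefore describe 1 cell. That cell, in cluster c0, had 4760 UMIs, of which Saa3 made up 5.53%. It carried 136 UMIs of stromal markers and 5 of Leydig markers. Its other leading genes were Cxcl1 (15 UMIs), Fabp4 (6), C6 (4), Ier5 (5), Saa1 (3), Cebpd (21), Arpc4 (3), Dusp1 (10) and Slc38a2 (4). Cebpd encodes a C/EBP factor of the acute-phase response. Saa1 is an acute-phase gene but a close paralog of Saa3, so the assignment of its 3 UMIs is uncertain. In macrophage cluster c19, 101 of the 123 dEXO UMIs were likewise in 1 cell. Macrophage cluster c16 had no Saa3 UMI in the 3 libraries.

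**Figure D2:**
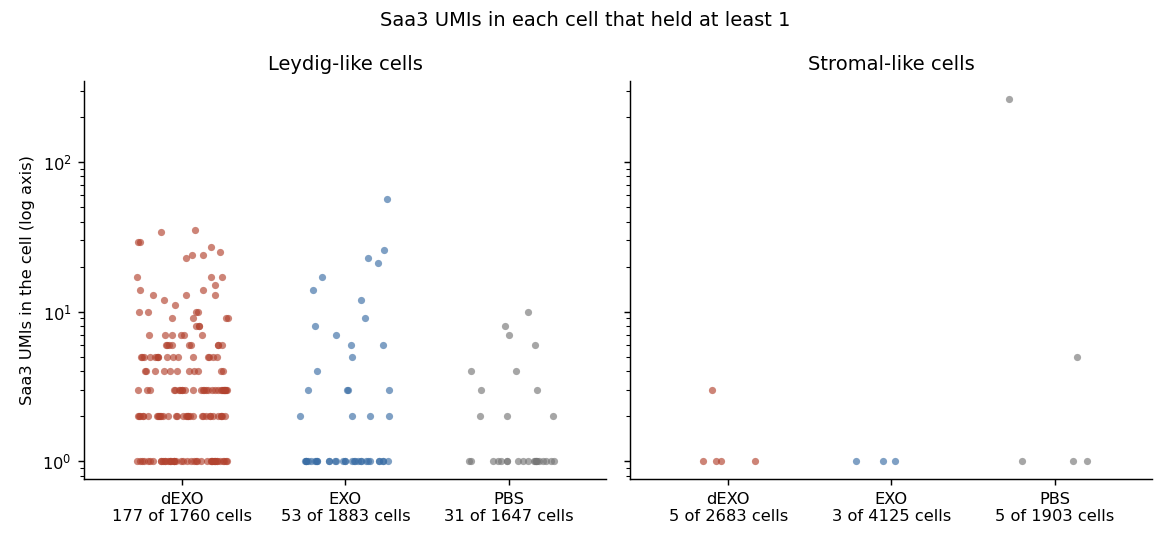
Saa3 UMIs (log axis) in each cell that held at least 1, for Leydig-like and stromal-like cells in the dEXO, EXO and PBS libraries; horizontal scatter is random. Among Leydig-like cells 177 dEXO, 53 EXO and 31 PBS cells are drawn, and among stromal-like cells a single PBS cell with 263 UMIs stands apart from the other 12.

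Lcn2, on chromosome 2 (32384633 to 32388252, minus strand), encodes lipocalin 2, which binds bacterial siderophores and withholds iron. It was the most abundant of the 9 genes, at 27738 CPM in dEXO, 25848 CPM in EXO and 25984 CPM in PBS Leydig-like cells. The libraries lay within a narrow range, with log2 ratios of 0.10 for dEXO against EXO, 0.09 for dEXO against PBS and -0.01 for EXO against PBS. A UMI was found in 99.9% of dEXO, 99.8% of EXO and 99.9% of PBS Leydig-like cells. Lcn2 is also a known product of neutrophils. The summed level of 7 neutrophil markers was 0.149 CPM in dEXO, 0.112 CPM in EXO and 0.0176 CPM in PBS Leydig-like cells. The genes whose levels over 28 units of class and library were most like it were Leydig genes: Cyp11a1, the side-chain cleavage enzyme of steroid synthesis (Pearson r = 0.996), Hsd17b3, the last enzyme of testosterone synthesis (0.991), and Insl3, a Leydig cell hormone (0.988). These correlations are a description over units that share libraries.

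Outside Leydig-like cells and c19 Lcn2 was lower in the classes described here. Stromal-like cells had 332 CPM in dEXO, 376 CPM in EXO and 205 CPM in PBS, and T or NK cells 377, 389 and 317 CPM. Spermatids had 918 CPM in dEXO, 510 CPM in EXO and 2141 CPM in PBS, where 743 of the 956 PBS UMIs were in 1 cell. Per 1000 Insl3 UMIs, Lcn2 had 917 UMIs in dEXO, 653 in EXO and 935 in PBS Leydig-like cells, against 800, 772 and 587 in stromal-like cells and 1443, 1026 and 924 in T or NK cells of the same libraries. These ratios were of one order but not equal, and the part of free Leydig RNA in the Lcn2 of other classes was not tested. Macrophage cluster c19, with 24097 CPM in dEXO, 21433 CPM in EXO and 20141 CPM in PBS, also carried Leydig markers at a summed 54300, 58872 and 47585 CPM, so its Lcn2 and Lrg1 were not read as macrophage levels.

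Lrg1, on chromosome 17 (56119678 to 56122001, minus strand), encodes a leucine-rich glycoprotein that modulates TGF-beta signalling in endothelium. In Leydig-like cells it had 431 CPM (423 to 439) in dEXO, 491 CPM (483 to 498) in EXO and 844 CPM (837 to 852) in PBS. PBS was highest, with log2 ratios of -0.97 (-1.0 to -0.94) for dEXO and -0.78 (-0.81 to -0.76) for EXO. The ratios within c1 were -0.86 for dEXO and -0.74 for EXO, and within c5 -0.80 and -0.91, so the difference was present in both clusters. These clusters held only 84 and 82 of the 1760 dEXO Leydig-like cells, so most dEXO cells were not compared with PBS within a cluster. The same limit holds for the dEXO to PBS ratios of the other genes within c1 and c5. In stromal-like cells the intervals of the 3 libraries overlapped, at 12, 11.6 and 12.3 CPM in dEXO, EXO and PBS.

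Serpina3n, on chromosome 12 (104406729 to 104414329, plus strand), encodes a secreted inhibitor of serine proteases. Its family has near-identical copies next to it, so reads may be split or dropped between them. Leydig-like cells had 80.5 CPM (77.2 to 84.0) in dEXO, 87.0 CPM (83.9 to 90.1) in EXO and 208 CPM (204 to 211) in PBS. The log2 ratio was -1.37 (-1.43 to -1.30) for dEXO and -1.26 (-1.31 to -1.20) for EXO, that is 2.58-fold and 2.39-fold lower than PBS; with no doublets removed the EXO ratio was -0.99. Both exosome libraries were lower than PBS also in c1 (-1.53 and -1.22) and in c5 (-0.82 and -1.50). In stromal-like cells it was again lower than PBS, at 90.5 CPM in dEXO, 111 CPM in EXO and 155 CPM in PBS (log2 ratios -0.78 and -0.49). Sertoli-like cells showed the same order at a lower level, with 14.5 CPM in dEXO, 15.8 CPM in EXO and 36.1 CPM in PBS. Those levels came from only 57, 29 and 40 UMIs in 481, 203 and 71 cells. Serpina3n was the only 1 of 3 measured members past 2-fold lower there in each exosome library, where 0.887% of all genes were in dEXO and 0.632% in EXO. The EXO ratio was -0.92 at the finer clustering of resolution 2. Among the stromal-like clusters the log2 ratios to PBS were -1.09 in dEXO and -1.33 in EXO cells of c0, -1.13 and -0.24 in c2, -1.15 and -0.99 in c6, and -0.84 and -1.36 in c9. In c3 the libraries had 141, 139 and 152 CPM, and both intervals included 0. Cluster c7, which stayed unnamed and was led by Cpz, Aldh3a1 and Csrp2, had the highest Serpina3n of the 25 clusters in each library, at 371 CPM in dEXO, 369 CPM in EXO and 555 CPM in PBS. Of its 8 measured paralogs 6 were higher in dEXO and 5 in EXO than in PBS Leydig-like cells, where 60.7% and 53.2% of all genes were. Serpina3c had 422 CPM in dEXO, 334 CPM in EXO and 309 CPM in PBS, while Serpina3m was past 2-fold lower in both, from 2 dEXO, 9 EXO and 58 PBS UMIs.

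Cxcl1 and Cxcl10 both lie on chromosome 5 (90891241 to 90893115, plus strand, and 92346638 to 92348889, minus strand). Cxcl1 attracts neutrophils, and Cxcl10, induced by interferon, attracts T cells through Cxcr3. All 9 genes matched a RefSeq promoter (GRCm38.p6). Searched on both strands over the 250 bases before the start, the NF-kB consensus occurred in 1281 of 32851 promoters (3.90%) and in 3 of the 9 genes, Cxcl1, Cxcl10 and Nfkbia. Pairs of these 3 transcripts were also found together in single Leydig-like cells, as were pairs that included genes without a match. The sequences of the 3 are shown, 5′ to 3′, with NF-kB matches in capitals. They are Cxcl1 at chr5:90890995-90891244 on the plus strand, Cxcl10 at chr5:92348890-92349139 on the minus strand and Nfkbia at chr12:55492648-55492897 on the minus strand.
Cxcl1: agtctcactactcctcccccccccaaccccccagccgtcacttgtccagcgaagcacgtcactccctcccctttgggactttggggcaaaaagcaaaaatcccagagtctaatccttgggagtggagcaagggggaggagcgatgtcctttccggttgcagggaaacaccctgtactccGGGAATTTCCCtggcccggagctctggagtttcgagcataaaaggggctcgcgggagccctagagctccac
Cxcl10: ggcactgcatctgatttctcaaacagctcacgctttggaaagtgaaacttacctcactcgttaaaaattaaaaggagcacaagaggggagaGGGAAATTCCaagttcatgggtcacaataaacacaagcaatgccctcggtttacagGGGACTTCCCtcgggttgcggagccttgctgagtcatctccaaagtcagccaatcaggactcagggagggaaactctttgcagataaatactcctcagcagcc
Nfkbia: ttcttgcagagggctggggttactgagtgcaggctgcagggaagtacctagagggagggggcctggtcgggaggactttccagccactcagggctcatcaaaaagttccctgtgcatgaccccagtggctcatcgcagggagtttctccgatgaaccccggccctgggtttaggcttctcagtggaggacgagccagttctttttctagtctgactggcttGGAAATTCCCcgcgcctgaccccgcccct

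The Cxcl1 promoter held 2 matches that overlap in the run of capitals, Cxcl10 held 2 apart, and Nfkbia 1. The C/EBP motif TTGCNNAA was in 9.56% of promoters and in those of Saa3 and Lcn2. The STAT motif TTCNNNGAA was in 7.02% of promoters and only in that of Icam1 among the 9. The interferon regulatory factor consensus was in 2.98% of promoters and in those of Saa3 and Cxcl10. Matches of different motifs did not overlap in these promoters. A match describes letters and is no evidence of binding.

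In Leydig-like cells Cxcl1 had 59.9 CPM (57.0 to 62.9) in dEXO, 41.5 CPM (39.4 to 43.6) in EXO and 75.7 CPM (73.4 to 78.0) in PBS. Both exosome libraries were below PBS, by log2 ratios of -0.34 (-0.42 to -0.25) for dEXO and -0.87 (-0.95 to -0.78) for EXO. Within c1 the ratios were -1.90 and -1.42, and within c5 they were -0.50 and -0.74. In stromal-like cells Cxcl1 had 13.0 CPM (10.3 to 16.2) in dEXO, 10.8 CPM (8.88 to 13.0) in EXO and 41.3 CPM (37.3 to 45.6) in PBS. The stromal log2 ratio was -1.67 (-2.03 to -1.32) for dEXO and -1.94 (-2.25 to -1.63) for EXO, or 3.18-fold and 3.83-fold lower than PBS. The share of stromal-like cells with a UMI was 1.94% in dEXO, 1.72% in EXO and 8.25% in PBS, and after thinning 1.09%, 0.866% and 2.67%. Without the highest cell of each library the ratios were -1.67 and -1.94; that cell held 6.25% of the dEXO, 6.19% of the EXO and 5.93% of the PBS UMIs.

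Of the 388 stromal Cxcl1 UMIs of PBS, 269 were in cluster c0, which was led by Dlk1, Igfbp3 and Fst. There Cxcl1 had 21.9 CPM in dEXO, 20.9 CPM in EXO and 81.8 CPM in PBS, with log2 ratios of -1.90 (-2.39 to -1.45) and -1.97 (-2.39 to -1.56). In c9, led by Mustn1 and Ly6c1, the ratios were -0.46 (-1.65 to 0.54) and -0.43 (-1.16 to 0.26), whose intervals include 0. Clusters c2, c3 and c6 held too few UMIs for ratios to PBS. No test compared the clusters.

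**Figure D3:**
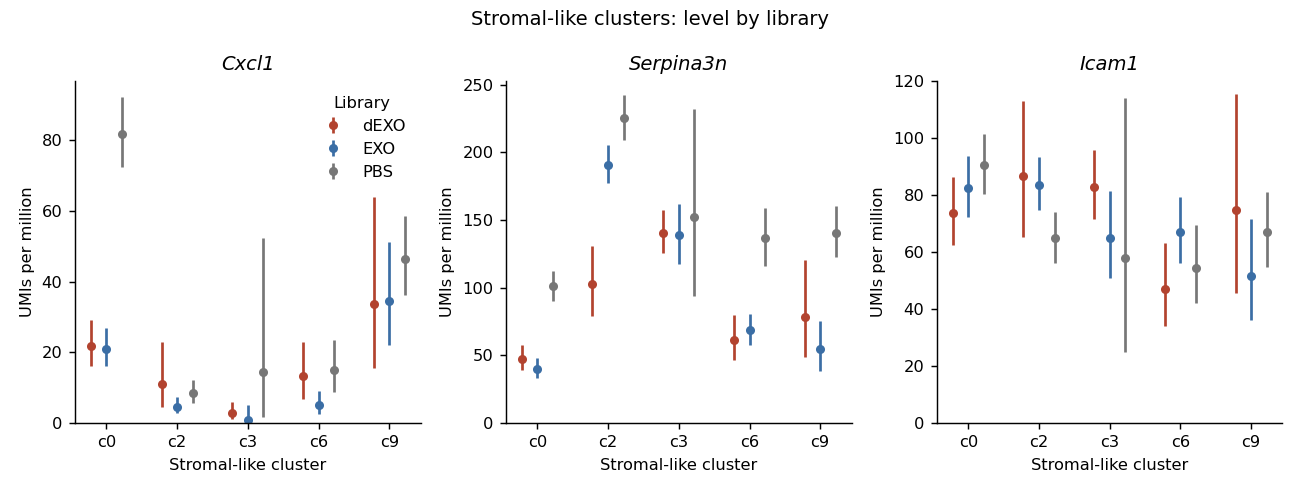
Levels of Cxcl1, Serpina3n and Icam1 (CPM, linear axis from 0) in the 5 stromal-like clusters for the dEXO, EXO and PBS libraries, with exact 95% Poisson intervals. Cxcl1 stands at 81.8 CPM in PBS cells of c0 against 21.9 in dEXO and 20.9 in EXO, while Icam1 shows no common order.

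Cxcl10 followed a different order in Leydig-like cells, at 58.6 CPM (55.7 to 61.5) in dEXO, 21.6 CPM (20.1 to 23.2) in EXO and 48.8 CPM (47.0 to 50.6) in PBS. EXO was lowest, with a log2 ratio of -1.17 (-1.29 to -1.06) to PBS. The dEXO to EXO ratio was 1.44 (1.31 to 1.56), or 2.71-fold, and that of dEXO to PBS 0.26 (0.17 to 0.35). In c1 and c5 dEXO was not above PBS: the ratio was -2.55 (-4.18 to -1.32) in c1, from 5 dEXO UMIs, and -0.63 (-1.02 to -0.27) in c5. These clusters held only 84 and 82 of the 1760 dEXO Leydig-like cells. Cluster c4, with 1594 dEXO and 18 PBS cells, had too few PBS cells for a ratio, so most dEXO cells were not compared with PBS within a cluster. Against EXO, dEXO was at 0.79 (0.45 to 1.15) in c4, 0.64 (0.24 to 1.02) in c5 and -0.83 (-2.46 to 0.42) in c1, all smaller than the ratio of the whole class. EXO was lower than PBS in both c1 (-1.72) and c5 (-1.27). The same order of EXO and PBS was seen in macrophages, with 143 CPM in dEXO, 84.6 CPM in EXO and 224 CPM in PBS cells of c16 (log2 ratio of EXO to PBS -1.41, -1.95 to -0.89). In T or NK cells the summed level was higher in the exosome libraries, at 274 CPM in dEXO, 274 CPM in EXO and 189 CPM in PBS (log2 ratio 0.54 for each exosome library). This rested on the settings: with thinned cells the ratios to PBS were 0.20 (-0.23 to 0.64) for dEXO and -0.14 (-0.57 to 0.30) for EXO, and with every cell weighing the same 0.32 and 0.02. Those levels came from 15.7% of dEXO, 14.3% of EXO and 20.7% of PBS T or NK cells. The genes most like Cxcl10 over the 28 units were Psmb9, an immunoproteasome subunit, Slc38a1, an amino acid transporter, and Isg15, an interferon-induced ubiquitin-like protein (r = 0.949, 0.946 and 0.944).

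Ccl8, on chromosome 11 (82115185 to 82116799, plus strand), encodes a CC chemokine that attracts monocytes and other leukocytes. Cluster c19, led by F13a1, Ccl8, Wfdc17 and Folr2, held 495 UMIs in dEXO, 498 in EXO and 709 in PBS, or 310, 386 and 220 CPM. By summed UMIs the level was highest in EXO, with log2 ratios of 0.81 (0.64 to 0.98) for EXO to PBS, 0.49 (0.33 to 0.66) for dEXO to PBS and -0.32 (-0.50 to -0.13) for dEXO to EXO, all within 2-fold. The order was not stable: over both macrophage clusters together the ratios to PBS were 0.44 for dEXO and 0.58 for EXO, but -0.56 (-1.08 to -0.04) and -0.94 (-1.51 to -0.39) with thinned cells, and -0.24 and -1.0 with every cell weighing the same. The dEXO to EXO ratio of these cells was -0.14, and 0.38 (-0.21 to 0.98) and 0.75 under the same settings. Cluster c19 carried 54300, 58872 and 47585 CPM of Leydig markers in dEXO, EXO and PBS, beside 3177, 3752 and 5695 CPM of macrophage markers. In dEXO, Leydig-like cluster c4 had 62948 CPM of Leydig markers, and macrophage cluster c16 had 25656 CPM of macrophage markers. The Ccl8 CPM of c19 is thus a level within mixed RNA and was not read as a macrophage level. The part of Leydig RNA in these ratios was not tested. The other macrophage cluster, c16, led by Cd74 and genes of MHC class II, had 28.1, 16.5 and 23.2 CPM in dEXO, EXO and PBS. Genes with the most similar pattern were C1qc, Wfdc17 and C1qa, all macrophage genes (r = 0.993 for each). Stromal-like cells had 1.30 CPM in dEXO, 5.05 CPM in EXO and 1.06 CPM in PBS, from 8, 53 and 10 UMIs. There the log2 ratio of EXO to PBS was 2.25 (1.26 to 3.39) and of dEXO to EXO -1.96 (-3.24 to -0.88). The 53 EXO UMIs were spread over 49 cells, with at most 2 in a cell. In the same stromal-like cells the summed macrophage markers stood at 16.2 CPM in dEXO, 25.4 CPM in EXO and 18.2 CPM in PBS, and their part was not tested.

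Icam1, on chromosome 9 (21015985 to 21028817, plus strand), is bound by leukocyte integrins. Leydig-like cells had 25.6 CPM (23.8 to 27.6) in dEXO, 26.5 CPM (24.8 to 28.2) in EXO and 49.3 CPM (47.5 to 51.1) in PBS. The exosome libraries overlapped each other and were below PBS, with log2 ratios of -0.94 (-1.07 to -0.82) for dEXO and -0.90 (-1.0 to -0.79) for EXO, within c1 of -1.47 and -0.91 and within c5 of -0.98 and -1.16. Stromal-like cells had higher levels with overlapping intervals, at 74.6, 76.0 and 72.8 CPM in dEXO, EXO and PBS. T or NK cells had 151 CPM in dEXO, 131 CPM in EXO and 185 CPM in PBS. Endothelial cells, where Icam1 is best known, numbered 14 in dEXO, 21 in EXO and 3 in PBS, too few to compare.

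Nfkbia, on chromosome 12 (55489410 to 55492647, minus strand), was highest in T or NK cells, with 662 CPM in dEXO, 678 CPM in EXO and 732 CPM in PBS, and stood at 253, 250 and 269 CPM in Sertoli-like cells. In Leydig-like cells it had 89.8 CPM (86.2 to 93.4) in dEXO, 41.6 CPM (39.5 to 43.8) in EXO and 83.1 CPM (80.8 to 85.5) in PBS. EXO was again the low library, like Cxcl10, with log2 ratios of -1.0 (-1.08 to -0.91) for EXO to PBS and 1.11 (1.02 to 1.20) for dEXO to EXO. EXO was lowest within clusters too: EXO to PBS was -1.18 in c1 and -1.10 in c5, dEXO to EXO was 1.06 in c1, 0.60 in c4 and 0.92 in c5, and dEXO to PBS was -0.12 (-0.52 to 0.25) in c1 and -0.18 (-0.47 to 0.10) in c5. In stromal-like cells, by contrast, both exosome libraries were at 72.4 CPM (dEXO) and 72.2 CPM (EXO), against 107 CPM in PBS.

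Counted over the members in Leydig-like cells, 3 of 9 measured genes were past 2-fold higher in dEXO than in EXO (Saa3, Cxcl10 and Nfkbia), where 7.56% of 13996 genes were, and none was lower (0.793% of all genes). For dEXO against PBS, 1 of 8 measured genes was past 2-fold higher (Saa3; 11.1% of all genes) and 1 lower (Serpina3n; 2.14%). For EXO against PBS, 1 of 8 was higher (Saa3; 6.13%) and 2 lower (Cxcl10 and Serpina3n; 1.95%), with Nfkbia just inside the limit. The calls of Nfkbia for dEXO against EXO (0.95 to 0.97) and of Cxcl10 for EXO against PBS (-0.92 to -0.90) were lost under 4 of the alternative settings. The median log2 ratio of the measured members was 0.50, -0.12 and -0.88 in these comparisons, beside 0.09, 0.09 and 0.02 for all genes tested. In stromal-like cells the counts were 1 lower of 8 for dEXO against EXO (Ccl8; 0.329% of all genes lower and 5.8% higher), 2 lower of 8 for dEXO against PBS (Saa3 and Cxcl1; 0.308% of all genes lower and 11.2% higher) and, for EXO against PBS, 1 higher (Ccl8; 8.32%) and 2 lower (Saa3 and Cxcl1; 0.327%) of 9. The stromal medians were -0.01, -0.34 and -0.49, beside 0.00, 0.23 and 0.26 for all genes. Relative to the median gene, dEXO against PBS in Leydig-like cells gave 4 genes past 2-fold in place of 2. The 2 stromal calls of Saa3 rest on the single PBS cell described above. The comparisons share libraries, and the genes were chosen from such contrasts, so nothing is read from the counts beyond this description.

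**Figure D4:**
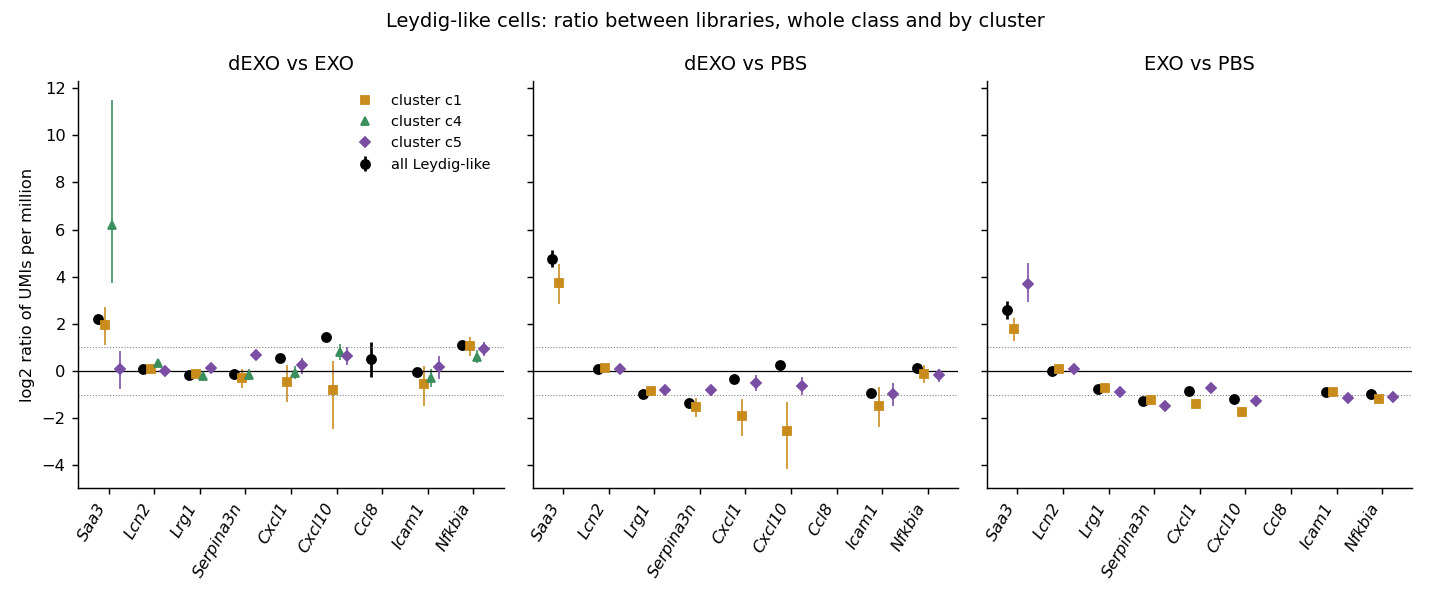
Log2 ratio of CPM in Leydig-like cells for dEXO against EXO, dEXO against PBS and EXO against PBS, for the whole class and within clusters c1, c4 and c5, with exact 95% intervals for counting error; dotted lines mark 2-fold, and genes with under 50 UMIs are left out. Saa3 lies above 0 at 4.77 and 2.57 against PBS, while Lrg1, Serpina3n and Icam1 lie below 0 in both exosome libraries.

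In single Leydig-like cells, a UMI of Cxcl10 or Nfkbia was more frequent in cells that also held Cxcl1. With every cell thinned to 1000 UMIs, a Cxcl10 UMI was present in 19.8% (12 to 29.8) of dEXO cells with a Cxcl1 UMI and in 4.01% (3.12 to 5.07) of those without. The shares were 10.1% (4.47 to 19) and 0.998% (0.592 to 1.57) in EXO, and 13.0% (7.49 to 20.6) and 3.27% (2.44 to 4.29) in PBS. The intervals did not overlap in any of the 3 libraries. Nfkbia was present in 16.3% against 8.45% of dEXO cells with and without Cxcl1, in 13.9% against 4.10% of EXO cells and in 23 of 115 against 7.13% of PBS cells, with overlapping intervals in dEXO (9.20 to 25.8 and 7.16 to 9.89). Among cells with Cxcl10, Nfkbia was present in 23.8% in dEXO, 11.5% in EXO and 23.1% in PBS, against 8.08%, 4.42% and 7.41% of cells without it; in EXO, with 26 such cells, the intervals overlapped. Within single clusters the pairing was also present, with Cxcl10 in 20.8% (12.4 to 31.5) against 4.23% (3.27 to 5.37) of c4 cells with and without Cxcl1 in dEXO, and in 10.9% (4.51 to 21.2) against 1.68% (0.999 to 2.64) of c1 cells in PBS. In c5 of PBS the intervals overlapped (16%, 7.17 to 29.1, against 7.26%, 5.02 to 10.1). For Saa3 the intervals overlapped: of 52 dEXO cells with a Saa3 UMI 1 had Cxcl1, 1 had Cxcl10 and 3 had Nfkbia, against 4.99%, 4.87% and 8.93% of cells without Saa3, and 20 had Lrg1 (38.5%, 25.3 to 53.0, against 27.6%, 25.5 to 29.8). Pairing was not limited to the 3 genes with an NF-kB match. Serpina3n was present in 20.7% (17.8 to 23.9) of PBS cells with Lrg1 and in 11.6% (9.57 to 13.8) of those without. The shares were 9.39% and 5.38% in dEXO, without overlap of intervals, and 9.17% and 6.63% in EXO, with overlap. Icam1 was present in 16.9% against 5.07% of PBS cells with and without Cxcl10, without overlap. In dEXO and EXO the intervals of that pair overlapped. These shares compare cells of 1 library, which are not replicates.

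**Figure D5:**
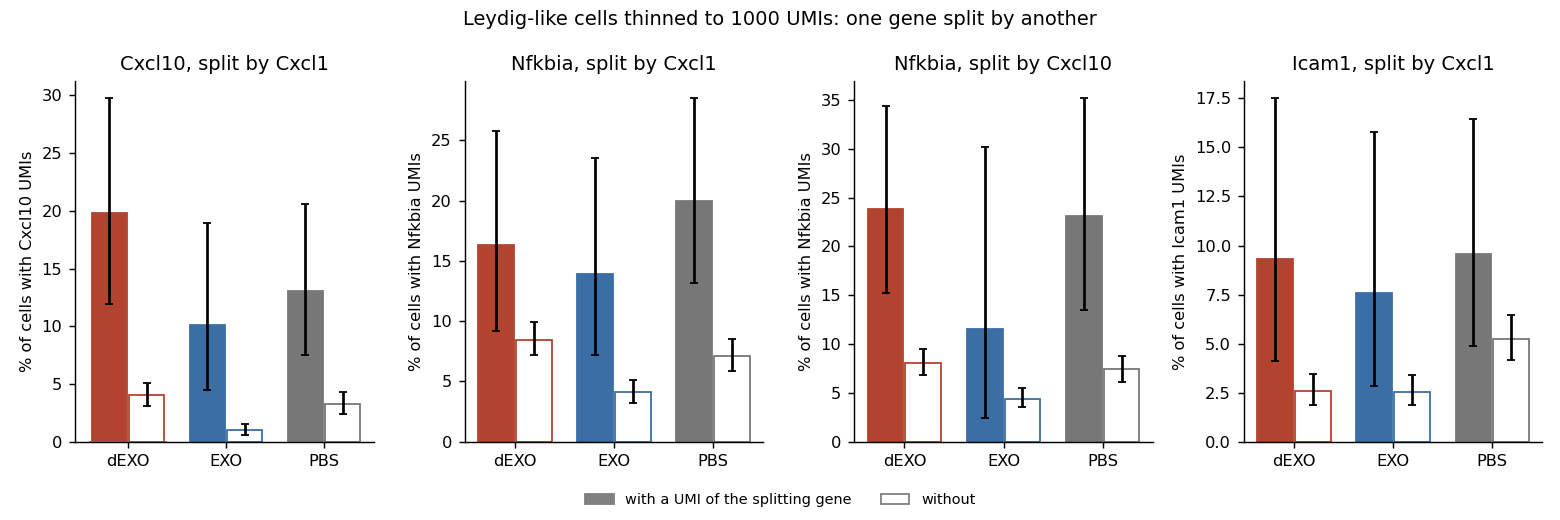
Percent of Leydig-like cells (thinned to 1000 UMIs) with Cxcl10, Nfkbia or Icam1, split by whether the cell also held a UMI of Cxcl1 or Cxcl10, in the dEXO, EXO and PBS libraries. Filled bars are cells with the splitting gene, open bars cells without, and lines are exact 95% binomial intervals; Cxcl10 is present in 19.8%, 10.1% and 13.0% of cells with Cxcl1.

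Further genes of the same response were read from lists of related genes, chosen with earlier results of these data known. Of all genes tested in Leydig-like cells, 39.3% were lower in dEXO and 46.8% in EXO than in PBS, and 2.14% and 1.95% were past 2-fold lower. Of 26 other acute-phase genes 11 were measured in Leydig-like cells, and 9 were lower than PBS in each exosome library, 3 of them past 2-fold in dEXO and 2 in EXO (medians -0.14 and -0.23, beside 0.09 and 0.02 for all genes). Complement C3 had 28.2 CPM in dEXO, 43.3 CPM in EXO and 128 CPM in PBS (log2 ratios -2.18 and -1.57 to PBS), and haptoglobin, Hp, had 0.966, 1.59 and 5.53 CPM. Timp1, an inhibitor of matrix proteases, had 62.3, 87.4 and 123 CPM. Saa3 thus ran opposite to these acute-phase genes. Of 31 other chemokines 13 were measured in the same cells, and 10 were lower in dEXO and 7 in EXO than in PBS, the EXO count being near the share of all genes. Among them was Cx3cl1, a membrane-bound chemokine, with 10.5 CPM in dEXO, 12.1 CPM in EXO and 23.5 CPM in PBS. Cebpb, which encodes a C/EBP factor of the acute-phase response, had 207 CPM in dEXO, 467 CPM in EXO and 230 CPM in PBS Leydig-like cells (log2 ratio 1.02 for EXO to PBS and -1.17 for dEXO to EXO). Lifr, a receptor subunit of the interleukin 6 family, had 403 CPM in dEXO, 405 CPM in EXO and 211 CPM in PBS.

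NF-kB subunits, inhibitors and kinases other than Nfkbia showed little common direction in Leydig-like cells. Of 18 measured, 10 were higher and 8 lower in dEXO and 9 and 9 in EXO than in PBS, none past 2-fold (medians 0.03 and -0.03). These counts were near the share of all genes, of which 60.7% were higher in dEXO and 53.2% in EXO (medians 0.09 and 0.02). Past 2-fold, 11.1% of all genes were higher and 2.14% lower in dEXO, and 6.13% and 1.95% in EXO. Nfkbiz, an atypical inhibitor, had 9.88 CPM in dEXO, 9.61 CPM in EXO and 16.2 CPM in PBS. In stromal-like cells 14 of 17 were higher in each exosome library, near the 76.0% of all genes in dEXO and 77.6% in EXO (medians 0.25 and 0.41, beside 0.23 and 0.26 for all genes). Socs3, a feedback inhibitor of interleukin 6 signalling, was lower there, at 87.1 CPM in dEXO, 74.9 CPM in EXO and 234 CPM in PBS (log2 ratios -1.43 and -1.64). So were immediate early genes, which rise within minutes of a stimulus and also during tissue dissociation: 17 of 18 were lower in each exosome library in stromal-like cells, where 24% of all genes in dEXO and 22.4% in EXO were (medians -0.89 for dEXO and -0.88 for EXO, beside 0.23 and 0.26 for all genes), among them Jun, with 405 CPM in dEXO, 324 CPM in EXO and 1141 CPM in PBS. In Leydig-like cells 17 of 18 were lower in dEXO and 16 in EXO (median -0.38 for each, beside 0.09 and 0.02 for all genes). Heat shock genes were lower too, in 8 of 12 for dEXO and 10 of 12 for EXO in stromal-like cells (medians -0.30 and -0.31). In stromal-like cells Cxcl1 and Nfkbia were lower in the same exosome libraries, and the part of these genes in those differences was not tested. Over the whole class of Leydig-like cells Nfkbia was not lower in dEXO than in PBS.

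The remaining members were described by the genes whose levels over the 28 units were most like theirs. For Saa3 these were Gpr182, Atp2b3 and Rdh1 (Pearson r = 0.77, 0.75 and 0.75), the loosest likeness of the 9 genes. Lrg1 was most like Klk1b21, Nat8f5 and Ces1d (0.99 for each), and Serpina3n most like Wnt6, Ifitm2 and Sult1a1 (0.97 for each). Cxcl1 was most like Echdc3, Nxph3 and Aqp2 (0.93, 0.93 and 0.92). Icam1 was most like Myh9, Msn and Irf1 (0.96 for each), and Nfkbia most like Elf1, Clic1 and Casp8 (0.96, 0.95 and 0.95).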

How the data were processed

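Raw UMI counts for 3 libraries, as the authors deposited them, were the input; per the file headers they came from Cell Ranger 5.0.1. Per the submitters' processing notes GRCm38 was the build, and Seurat is named without a role. The labels give testis as the tissue, while their extraction protocol speaks of aorta; Sertoli, Leydig and germ cell genes were found. From these counts, cells needed 500 UMIs, 300 genes and a mitochondrial share up to 20%. Scrublet (scanpy 1.11.5) at its automatic threshold called 0 dEXO, 2 EXO and 4 PBS cells and so did not work; instead the 665, 778 and 222 highest-scoring cells, the share expected from loading, were removed. Leiden clustering (leidenalg 0.10.2, 2000 variable genes, 30 components, 15 neighbours, resolution 1) gave 25 clusters, named from at least 3 raised markers. Ratios needed 50 cells and 50 UMIs over both libraries; "past 2-fold" is the call used. Intervals are exact 95% ones (Poisson, Clopper-Pearson, conditional binomial). Genes named from the lists were, per pair of libraries, up to 3 with the interval bound farthest from 0, and for likeness the 3 highest Pearson correlations of log2(CPM + 10). Shares were also taken with cells thinned to 1000 UMIs. Ratios and intervals (Python 3.11.15, scipy 1.17.1) were tested on simulated Poisson counts. Those counts lack UMIs clumped in few cells, so the test does not cover genes with such clumping. Scaling, cell weights, thinning, clustering, doublet and mitochondrial settings were varied. The members and lists were chosen with earlier results of these data known. Positions are from GENCODE, promoters from RefSeq.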

Additional observations from a re-analysis of the deposited data

Results flagged for a closer look

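Saa3 differed from PBS in opposite directions in different classes. For dEXO against PBS the log2 ratio was 4.77 in Leydig-like cells and 4.57 in macrophages but -4.66 in stromal-like cells. For EXO against PBS it was 2.57 in Leydig-like cells and -6.66 in stromal-like cells. With 1 library per group the difference between the classes was not tested. The stromal-like values rest on 1 PBS cell that held 263 of 271 UMIs, and the macrophage value on cluster c19, where 1 dEXO cell held 101 of 123 UMIs and which carried 54300 CPM of Leydig markers in dEXO, 58872 CPM in EXO and 47585 CPM in PBS, so it was not read as a macrophage level. The Leydig-like values came from 177 dEXO, 53 EXO and 31 PBS cells, but unevenly. Cells with 5 or more UMIs numbered 62 in dEXO, 13 in EXO and 4 in PBS. They held 682 of 919, 211 of 266 and 31 of 71 UMIs in the same order.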

How the results depend on the processing

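Of 19 ratios past 2-fold, over 11 alternative settings, all 197 values kept their direction and 187 stayed past 2-fold. Of 78 ratios within 2-fold, 788 of 844 values kept their direction and 22 came to lie past 2-fold. For example, the Lcn2 ratio of dEXO to EXO in Sertoli-like cells was 0.08 and reached 1.61 under an alternative setting. A ratio left with too few UMIs under a setting gave no value. The stromal ratios of Saa3 to PBS gave none without the highest cell, so the tally could not record a change of direction there. The calls lost were those of Nfkbia (dEXO against EXO) under 4 settings, Cxcl10 (EXO against PBS) under 4 and Serpina3n (EXO against PBS) under 1 in Leydig-like cells, and Serpina3n in Sertoli-like cells under 1. The count of members past 2-fold for dEXO against PBS was 4 in place of 2 in Leydig-like cells when scaled to the median gene, and 1 in place of 2 in stromal-like cells without the highest cell of each member, an alternative chosen after seeing the data that left 7 genes measured. For EXO against PBS in Leydig-like cells it was 5 in place of 3 at the automatic doublet threshold, with 9 genes measured in place of 8; the cause was not tested. No paired analysis was possible because each group was 1 library. Depth limits members with few UMIs in a class, such as Saa3 in stromal-like cells (7 UMIs in dEXO and 3 in EXO).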
